A study of Mus musculus with 16 samples.

Results

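The 38 genes described here encode the enzymes and carriers of the urea cycle and of the main routes by which the liver breaks down amino acids, and were taken as a list of gene symbols. They were read from the livers of Pdgf-c transgenic mice and of wildtype mice. The array table held 19938 genes with a row of their own, and 33 of the 38 enzymes were among them. A gene with several rows was represented by its brightest, judged by the mean of the 16 arrays. Ass1 and Ahcy had only rows shared with other genes and were left out, and Gls2, Sds and Sdsl were not analysed here.

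There were 7 Pdgf-c transgenic and 9 wildtype samples, and both groups were of the C57BL/6 strain. The transgene encodes a secreted growth factor of the PDGF family that acts on fibroblasts and stellate cells of the liver, and the series asked about the part of stromal cells in liver tumour formation. Expression was read on Affymetrix Mouse Gene 1.0 ST arrays, with 1 array per sample. The labels used here give neither the promoter or founder line of the transgene nor the age of the mice. Nothing in them ties each sample to its own animal, and the p-values therefore cover the spread among these samples, which may be technical. The labels name stromal cells, whereas the extraction protocol describes RNA of the whole liver. The 14 hepatocyte markers had a mean level of 12.89 to 12.95 on the log2 scale in the transgenic arrays and 12.95 to 13.02 in the wildtype arrays, so hepatocyte transcripts were abundant in both groups and the samples are treated as whole liver. The Pdgfc row averaged 6.45 ± 0.2 in transgenic and 6.01 ± 0.156 in wildtype arrays (SD, n = 7 and n = 9), a difference of 0.44 ± 0.0873 (SE; limma adjusted p = 0.00132), and 6 of 7 transgenic arrays lay above the whole wildtype range. Whether this row reads the transgene or only the mouse's own gene was not tested.

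Hepatocytes remove the amino groups of amino acids by transferring them to glutamate and aspartate and by releasing ammonia, and the urea cycle joins that nitrogen to bicarbonate. The cycle starts in the mitochondrion, passes through the cytosol and ends with arginase, which releases urea and returns ornithine. The remaining carbon skeletons enter the citric acid cycle, gluconeogenesis or ketogenesis through a separate route for each amino acid. Many of these enzymes are most abundant in the hepatocytes around the portal vein, whereas glutamine synthetase is restricted to those around the central vein and ornithine aminotransferase is enriched there. In whole-liver RNA, fewer cells of a type and less RNA per cell cannot be told apart.

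All changes among the 33 measured enzymes were decreases. In the transgenic livers 25 enzymes were lower and 0 were higher (limma, Benjamini-Hochberg adjusted p of at most 0.05 over all 35557 rows), and 8 were not called. The 25 are 75.8% of those measured. Over all rows 8.26% were lower and 10.6% higher, over all 19938 genes 11.1% were lower and 12.1% higher, and over the 3596 genes at least as bright as the dimmest of the enzymes 33.2% were lower and 11.7% higher. The median difference, transgenic minus wildtype on the log2 scale, was -0.29 over the 33 enzymes, -0.09 over the genes of that brightness and -0.04 over all genes. The decreases were modest, with 2 enzymes, Hal and Gldc, at least 1.5-fold lower, a size reached by 0.868% of all genes and 2.42% of the bright ones. In 9 enzymes all transgenic arrays lay below all wildtype arrays, namely Otc, Arg1, Slc25a13, Glud1, Tdo2, Uroc1, Ftcd, Prodh2 and Aldh4a1. Such a separation in that direction was found in 3.65% of all genes and 13.5% of the bright ones, and in the opposite direction in 5.43% of all genes and 0 of the enzymes. The enzymes that were not called were Cps1, Tat, Hgd, Mat1a, Bhmt, Aass, Oat and Prodh.

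**Figure D1:**
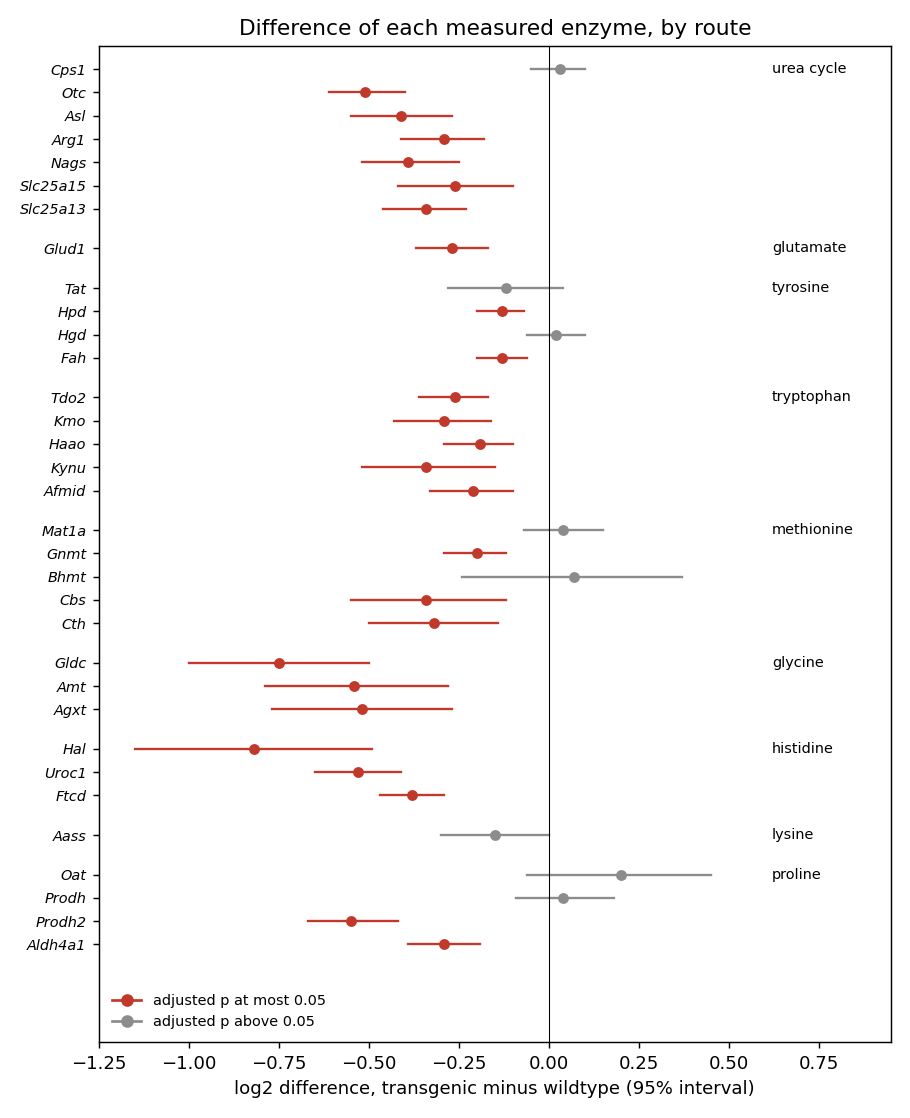
Difference of each of the 33 measured enzymes between transgenic and wildtype livers, on the log2 scale, with 95% intervals of the limma fit, grouped by route. Red points had an adjusted p of at most 0.05, and all 25 of them lie left of 0, between -0.82 for Hal and -0.13 for Hpd and Fah.

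The urea cycle was lower in 6 of 7 measured genes, with a median of -0.34, and its entry enzyme was the exception. Cps1, the carbamoyl phosphate synthetase that fixes ammonia, ran from 12.78 through a median of 12.95 to 12.98 on the log2 scale in transgenic arrays, and from 12.80 through 12.92 to 12.97 in wildtype arrays. The groups overlapped almost fully (0.03 ± 0.0343, SE; 95% interval -0.05 to 0.10; limma adjusted p = 0.677). Nags, which makes the N-acetylglutamate that Cps1 requires, was lower at 9.25, 9.44 and 9.67 (lowest, median and highest) in transgenic arrays, against 9.61, 9.80 and 10.06 in wildtype arrays. Its difference was -0.39 ± 0.0651 (limma adjusted p = 2.77e-04), with 6 of 7 transgenic arrays below every wildtype array.

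Otc, the mitochondrial ornithine transcarbamylase that makes citrulline, had the largest decrease of the cycle. Its values were 10.54, 10.74 and 10.91 in transgenic arrays, against 11.12, 11.24 and 11.32 in wildtype arrays, with no overlap. The difference was -0.51 ± 0.0487, or 1.42-fold lower (limma adjusted p = 5.50e-07). Slc25a13, the mitochondrial aspartate and glutamate carrier, also separated the groups, at 10.50, 10.85 and 10.92 in transgenic arrays and 11.02, 11.11 and 11.25 in wildtype arrays (-0.34 ± 0.0566; limma adjusted p = 2.17e-04). Slc25a15, which exchanges ornithine and citrulline across the same membrane, was lower by a smaller margin that 2 arrays decided. It differed by -0.26 ± 0.0758 (limma adjusted p = 0.0231) with 5 of 7 transgenic arrays below all wildtype arrays, but it was not called at -0.23 without transgenic array 3 or at -0.22 without transgenic array 4.

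In the cytosol, Asl, which splits argininosuccinate into arginine and fumarate, was 1.33-fold lower. It ran from 11.53 through 11.71 to 12.06 in transgenic arrays and from 12.01 through 12.13 to 12.36 in wildtype arrays (-0.41 ± 0.0669; limma adjusted p = 1.90e-04), and 1 transgenic array reached the wildtype range. Arg1, the arginase that releases urea, was held within a narrow range in wildtype livers, from 12.69 to 12.78 around a median of 12.75. In transgenic livers it spread from 12.18 through 12.51 to 12.62, and every array was below that range (-0.29 ± 0.0541; limma adjusted p = 6.44e-04). The SD of Arg1 was 0.172 in transgenic and 0.0337 in wildtype arrays. Glud1, glutamate dehydrogenase, which releases ammonia from glutamate, likewise did not overlap, at 11.74, 12.01 and 12.10 in transgenic arrays and 12.14, 12.25 and 12.34 in wildtype arrays (-0.27 ± 0.0477; limma adjusted p = 4.76e-04).

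Among 16 other genes of ammonia handling, transamination and arginine use, 8 were lower and 2 higher, with a median of -0.22. For this list and the later ones, the shares over all genes were 11.1% lower and 12.1% higher. Over the genes at least as bright as the dimmest enzyme they were 33.2% and 11.7%, and the lists hold genes brighter and dimmer than that. Car5a, the mitochondrial carbonic anhydrase that supplies bicarbonate to Cps1, was 1.6-fold lower. Its transgenic arrays lay at 8.59, 8.77 and 8.93, below all wildtype arrays at 9.19, 9.40 and 9.62 (-0.68 ± 0.0657; limma adjusted p = 5.74e-07). Aspg, an asparaginase, was 1.55-fold lower (-0.63 ± 0.106). The dim Slc25a2, a second ornithine carrier, differed by -0.44 ± 0.0949, at mean levels of 4.11 in transgenic and 4.54 in wildtype arrays. The genes that were higher were Glul, glutamine synthetase (0.37 ± 0.0933), and Got1, the cytosolic aspartate aminotransferase (0.48 ± 0.155; limma adjusted p = 0.036). The Got1 call was lost on leaving out any 1 of 10 arrays, at 0.40 to 0.48, and after centring each array on its median, at 0.43.

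**Figure D2:**
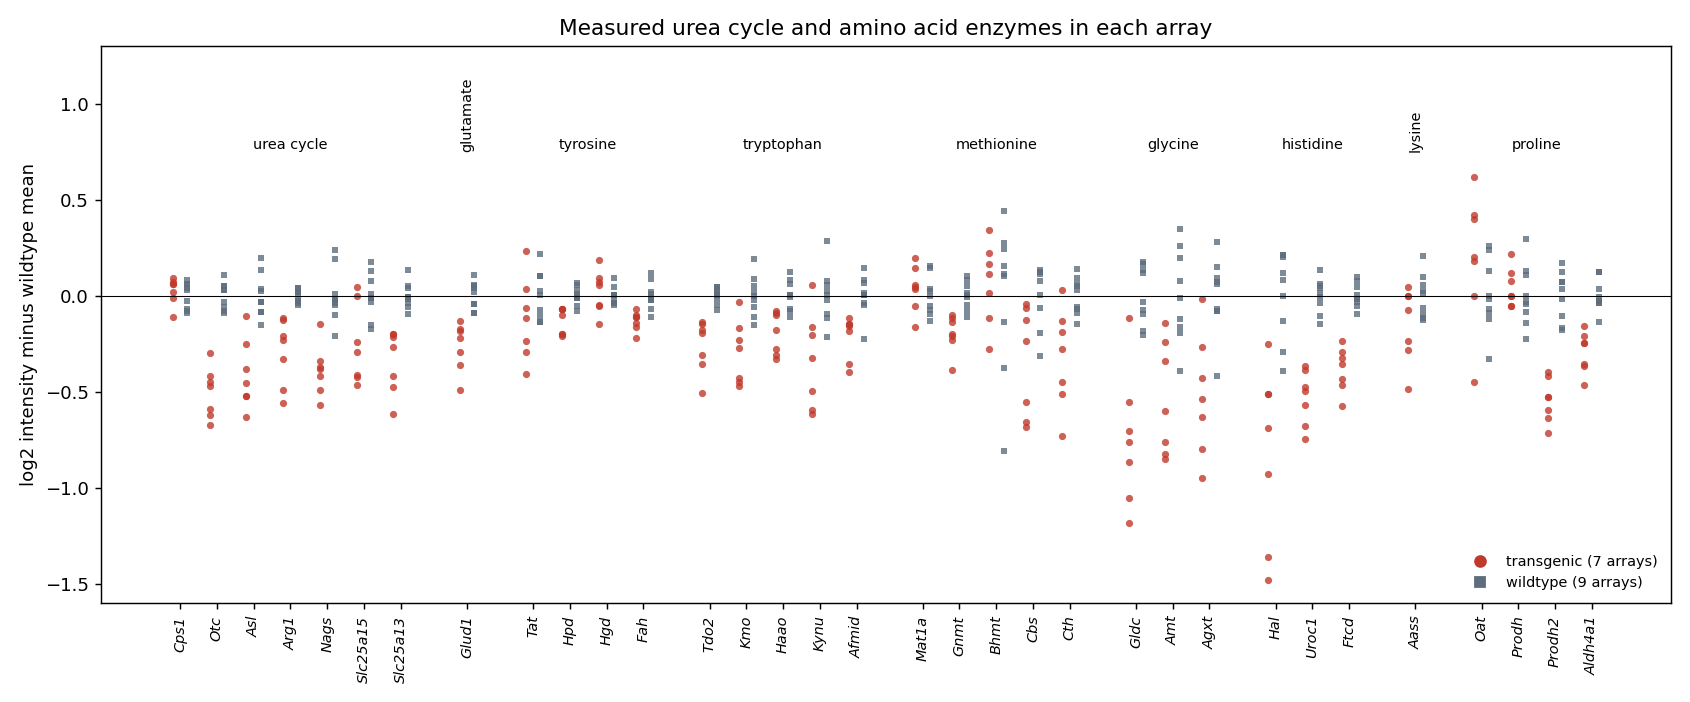
Log2 intensity of each measured enzyme in each array, minus the wildtype mean of that enzyme, with 7 transgenic arrays as red circles and 9 wildtype arrays as grey squares. Transgenic arrays spread downwards most widely in Hal, Gldc, Agxt and Amt, whereas Cps1, Hgd, Mat1a and Prodh stay around the wildtype mean and Oat has arrays on both sides of it.

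The whole histidine route was lower, with a median of -0.53 over its 3 listed enzymes. Its first enzyme Hal, histidine ammonia-lyase, converts histidine to urocanate, Uroc1 hydrates urocanate, Amdhd1 opens the imidazolone ring and Ftcd passes the formimino group to tetrahydrofolate. Because these genes moved together, the 250 bases before the start of the 3 listed ones are shown from RefSeq on GRCm38.p6, 5′ to 3′ on the strand of the gene. Hal lies at chr10:93488518-93488767 (+), Uroc1 at chr6:90333039-90333288 (+) and Ftcd at chr10:76575398-76575647 (+). Capitals mark matches on either strand to CAAAGTNCA, a core of the sequence bound by the liver factor HNF4, or to TTGCNNAA, a core of the sequence bound by C/EBP factors.
Hal: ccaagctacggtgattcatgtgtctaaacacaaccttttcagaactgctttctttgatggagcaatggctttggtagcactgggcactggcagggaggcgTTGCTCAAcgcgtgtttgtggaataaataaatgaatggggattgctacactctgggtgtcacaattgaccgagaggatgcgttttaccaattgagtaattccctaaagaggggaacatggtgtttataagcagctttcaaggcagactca
Uroc1: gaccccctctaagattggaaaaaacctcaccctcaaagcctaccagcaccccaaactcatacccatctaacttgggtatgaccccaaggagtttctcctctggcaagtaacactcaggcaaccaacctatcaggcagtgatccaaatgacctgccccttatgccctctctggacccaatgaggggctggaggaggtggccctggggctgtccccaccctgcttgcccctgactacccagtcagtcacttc
Ftcd: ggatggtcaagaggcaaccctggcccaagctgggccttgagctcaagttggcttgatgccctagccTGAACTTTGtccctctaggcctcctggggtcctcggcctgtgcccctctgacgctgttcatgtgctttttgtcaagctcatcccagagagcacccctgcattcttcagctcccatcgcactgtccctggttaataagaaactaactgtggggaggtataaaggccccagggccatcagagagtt
Hal held the C/EBP letters at -150 to -143 from its start, Ftcd the HNF4 letters at -184 to -176, and Uroc1 neither. Of the 33 measured enzymes 27 had a promoter entry, and the C/EBP letters were in 4 of them, 2 of the 21 lower and 2 of the 6 uncalled ones, against 10.8% of 27025 genes with a match in at least 1 of their promoters. The HNF4 letters were in 1 of the 27, against 1.4% of the 27025 genes by the same count.

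Hal had the largest decrease of all 33 enzymes and the widest spread among transgenic livers. It ran from 9.35 through 10.14 to 10.58 in transgenic arrays, against 10.44, 10.91 and 11.04 in wildtype arrays, a difference of -0.82 ± 0.158 or 1.77-fold (limma adjusted p = 9.70e-04). Only transgenic array 7 reached the wildtype range. Uroc1 was 1.45-fold lower with no overlap, at 9.20, 9.45 and 9.58 in transgenic arrays and 9.80, 9.96 and 10.08 in wildtype arrays (-0.53 ± 0.0563; limma adjusted p = 1.73e-06). Amdhd1, of the wider list, differed by -0.61 ± 0.117 (limma adjusted p = 9.36e-04). Ftcd ran from 10.62 through 10.84 to 10.96 in transgenic arrays and from 11.10 through 11.18 to 11.29 in wildtype arrays (-0.38 ± 0.0445; limma adjusted p = 5.45e-06). Of 5 other histidine genes Amdhd1 was the 1 that was lower, and Hnmt, which methylates histamine, was the 1 that was higher (0.32 ± 0.105; limma adjusted p = 0.0371). The Hnmt call was lost after centring, at 0.27, and without any 1 of 8 arrays, at 0.26 to 0.33.

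The glycine cleavage system is a mitochondrial complex that splits glycine into carbon dioxide, ammonia and a methylene group on tetrahydrofolate. The transcripts of its 4 proteins were each lower. Gldc, the decarboxylase or P protein, ran from 7.66 through 8.08 to 8.73 in transgenic arrays, against 8.64, 8.81 and 9.02 in wildtype arrays. It was 1.68-fold lower (-0.75 ± 0.119; limma adjusted p = 1.49e-04), and transgenic array 2 alone lay within the wildtype range. Amt, the aminomethyltransferase or T protein, was 1.45-fold lower, at 7.39, 7.64 and 8.10 in transgenic arrays and 7.85, 8.23 and 8.59 in wildtype arrays (-0.54 ± 0.123; limma adjusted p = 0.00409). Gcsh, the lipoyl carrier or H protein, differed by -0.37 ± 0.0965 (limma adjusted p = 0.0102). Dld, the dihydrolipoamide dehydrogenase or L protein, which other mitochondrial dehydrogenase complexes also use, was named after its values were seen. It differed by -0.25 ± 0.0726 (limma adjusted p = 0.0228), and was not called at -0.23 without transgenic array 3 or at -0.21 without transgenic array 4.

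Genes that handle glyoxylate and hydroxyproline were lower along with them. Agxt, the aminotransferase that turns glyoxylate into glycine, had values of 9.31, 9.72 and 10.24 in transgenic arrays, against 9.84, 10.32 and 10.54 in wildtype arrays. Its difference was -0.52 ± 0.117, with 5 of 7 transgenic arrays below all wildtype arrays (limma adjusted p = 0.00349). Grhpr, the reductase for glyoxylate and hydroxypyruvate, was 1.51-fold lower with no overlap, at 10.46, 10.62 and 10.69 in transgenic arrays and 11.07, 11.19 and 11.30 in wildtype arrays (-0.59 ± 0.0408; limma adjusted p = 7.65e-09). Shmt2, the mitochondrial serine hydroxymethyltransferase, did not overlap either (-0.41 ± 0.0498; limma adjusted p = 9.14e-06). Glyctk, glycerate kinase, differed by -0.35 ± 0.0567. Hao1, which oxidises glycolate to glyoxylate, and Hoga1, the aldolase that ends hydroxyproline breakdown, were named after their values were seen, at -0.29 ± 0.0543 and -0.31 ± 0.0635. In the wider list of serine, glycine and glyoxylate genes 12 of 16 were lower and 1, Agxt2 (0.23 ± 0.0484), was higher, with a median of -0.30.

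Proline and hydroxyproline, which are oxidised by related enzymes, were read together, and 2 of the 4 enzymes of this route were lower. Prodh, proline dehydrogenase, had values of 10.94, 10.99 and 11.21 in transgenic arrays and 10.77, 10.96 and 11.29 in wildtype arrays, and the groups overlapped (0.04 ± 0.0639; 95% interval -0.09 to 0.18; limma adjusted p = 0.711). Prodh2, hydroxyproline dehydrogenase, was 1.46-fold lower, at 9.32, 9.51 and 9.64 in transgenic arrays and 9.86, 10.07 and 10.21 in wildtype arrays (-0.55 ± 0.059; limma adjusted p = 2.22e-06). Its groups were separate. Aldh4a1, the dehydrogenase that acts after both, was also lower without overlap, at 9.92, 10.14 and 10.23 in transgenic arrays and 10.25, 10.36 and 10.51 in wildtype arrays (-0.29 ± 0.0472; limma adjusted p = 1.79e-04). The promoters of the pair are shown because 1 of these related genes was called and the other was not, Prodh2 at chr7:30493408-30493657 (+) and Prodh at chr16:18089191-18089440 (-), with the same use of capitals.
Prodh2: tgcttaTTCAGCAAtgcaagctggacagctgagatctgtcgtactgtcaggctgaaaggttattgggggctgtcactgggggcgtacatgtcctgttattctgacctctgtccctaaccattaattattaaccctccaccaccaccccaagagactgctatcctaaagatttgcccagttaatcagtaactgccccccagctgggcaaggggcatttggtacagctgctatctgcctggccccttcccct
Prodh: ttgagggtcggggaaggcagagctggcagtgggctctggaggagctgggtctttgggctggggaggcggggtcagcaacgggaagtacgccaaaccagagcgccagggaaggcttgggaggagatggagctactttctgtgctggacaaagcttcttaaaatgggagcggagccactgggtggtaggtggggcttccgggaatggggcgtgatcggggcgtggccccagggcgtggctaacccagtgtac
Prodh2 held the C/EBP letters at -244 to -237 and Prodh held none of the searched letters in this window. The difference between the responses of the pair was not tested. Among 3 other proline and ornithine genes 1 was lower, Pycr3 (Pycrl in the table), a reductase of proline synthesis (-0.38 ± 0.0777).

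Oat, the ornithine aminotransferase, was the enzyme with the most positive difference, and 1 array decided its call. Its transgenic values were 11.44, 12.09 and 12.51 and its wildtype values 11.56, 11.87 and 12.15 (0.20 ± 0.122; limma adjusted p = 0.308). Of the transgenic arrays, 3 lay above every wildtype array, and array 1 lay below all of them. Without transgenic array 1 the difference was 0.30 ± 0.094 and Oat was called higher, the 1 increase among the enzymes in that setting. That array held the lowest transgenic value of Oat, so leaving it out had to raise the difference.

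The kynurenine route of tryptophan was lower at all 5 measured steps, by 1.14-fold to 1.26-fold, with a median of -0.26. Tdo2, the dioxygenase that opens the indole ring, ran from 12.32 through 12.63 to 12.69 in transgenic arrays, below all wildtype arrays at 12.75, 12.83 and 12.87 (-0.26 ± 0.0448; limma adjusted p = 3.34e-04). Afmid, which hydrolyses formylkynurenine, differed by -0.21 ± 0.0545. Kmo, the kynurenine hydroxylase, differed by -0.29 ± 0.0634, and Kynu, kynureninase, by -0.34 ± 0.0896. Haao, which makes the precursor of quinolinate, differed by -0.19 ± 0.0441. In those last 4 the groups overlapped, with 2 to 6 of the 7 transgenic arrays below all wildtype arrays.

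Acmsd, the decarboxylase that diverts the product of Haao away from NAD synthesis, moved the other way. It had values of 7.14, 7.40 and 7.94 in transgenic arrays, against 6.53, 6.86 and 7.29 in wildtype arrays, and was 1.54-fold higher (0.63 ± 0.12; limma adjusted p = 9.15e-04). It was the 1 of 12 other tryptophan and NAD genes that was higher, while 5 were lower. These included Nmnat1, the nuclear adenylyltransferase of NAD synthesis (-0.56 ± 0.0909), Kyat1, a kynurenine aminotransferase (-0.52 ± 0.089), and Naprt, which uses nicotinate (-0.46 ± 0.0748).

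The tyrosine route was lower in 2 of its 4 enzymes, with a median of -0.13, and the decreases were small. Hpd, the hydroxyphenylpyruvate dioxygenase, differed by -0.13 ± 0.0303 (limma adjusted p = 0.00378) and Fah, the hydrolase at the end of the route, by -0.13 ± 0.0327 (limma adjusted p = 0.00716). Both were 1.1-fold lower. Tat, tyrosine aminotransferase, ran from 12.69 through 12.98 to 13.33 in transgenic arrays and from 12.96 through 13.10 to 13.31 in wildtype arrays (-0.12 ± 0.0772; 95% interval -0.28 to 0.04; limma adjusted p = 0.323). Hgd, homogentisate dioxygenase, differed by 0.02 ± 0.0399 (95% interval -0.06 to 0.10; limma adjusted p = 0.779), and this small value turned negative after quantile normalization, after centring and without transgenic array 6. Of 5 other phenylalanine and tyrosine genes 4 were lower. Among them Gchfr, a regulator of tetrahydrobiopterin synthesis, and Gch1, its first enzyme, differed by -0.49 ± 0.0515 and -0.48 ± 0.086 with no overlap. Gstz1, which isomerises maleylacetoacetate, differed by -0.20 ± 0.0505. Qdpr, which regenerates tetrahydrobiopterin, differed by -0.24 ± 0.0747, a call that was lost without any 1 of 7 arrays, at -0.23 to -0.18.

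In the methionine route 3 of 5 enzymes were lower, with a median of -0.20. These were Gnmt and both enzymes of transsulfuration, while Mat1a and Bhmt were not called. Mat1a, the liver methionine adenosyltransferase, averaged 12.69 in transgenic and 12.65 in wildtype arrays (0.04 ± 0.0513; 95% interval -0.07 to 0.15; limma adjusted p = 0.665). Gnmt, which spends S-adenosylmethionine on methylating glycine, ran from 12.74 through 12.93 to 13.03 in transgenic arrays and from 13.02 through 13.13 to 13.23 in wildtype arrays (-0.20 ± 0.0408; limma adjusted p = 0.00154). Bhmt, which remethylates homocysteine with betaine, had a wide wildtype range, 11.35, 12.27 and 12.60, against 11.88, 12.27 and 12.50 in transgenic arrays (0.07 ± 0.145; 95% interval -0.24 to 0.37; limma adjusted p = 0.807). In this row the sign rested on wildtype array 1, the lowest, without which the difference was -0.03. Other rows of Bhmt had wildtype means of 12.07 and 5.77 and differed by 0.02 ± 0.152 and 0.13 ± 0.174, neither called. The level of Bhmt thus depended on the row, and which row reads the gene best was not tested.

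Both transsulfuration enzymes, which turn homocysteine into cysteine, were lower. Cth, cystathionine gamma-lyase, had values of 11.04, 11.49 and 11.80 in transgenic arrays and 11.62, 11.80 and 11.91 in wildtype arrays (-0.32 ± 0.0849; limma adjusted p = 0.0111). Cbs, cystathionine beta-synthase, had values of 10.28, 10.73 and 10.92 in transgenic arrays and 10.65, 11.04 and 11.10 in wildtype arrays (-0.34 ± 0.102; limma adjusted p = 0.0255). The Cbs call was lost without transgenic array 1, 3 or 4, at -0.30 to -0.28. Of 19 other methionine, sulfur and folate genes 12 were lower and 0 higher. Sardh, which oxidises the sarcosine made by Gnmt, was 1.4-fold lower with no overlap, at 11.34, 11.46 and 11.63 in transgenic arrays and 11.85, 11.95 and 12.07 in wildtype arrays (-0.48 ± 0.0459; limma adjusted p = 4.79e-07). Dmgdh, the dehydrogenase for dimethylglycine, was named after its values were seen and differed by -0.31 ± 0.0435. Csad, a decarboxylase of taurine synthesis, was 1.54-fold lower (-0.62 ± 0.12). Mpst, a sulfurtransferase of cysteine breakdown, and Suox, sulfite oxidase, differed by -0.39 ± 0.0544 and -0.37 ± 0.0898.

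The listed lysine enzyme Aass, which starts lysine breakdown, was not called (-0.15 ± 0.0715; 95% interval -0.30 to 0.00; limma adjusted p = 0.172). The wider list of branched-chain and lysine genes was lower in 15 of 23 and higher in 1, with a median of -0.27. Bckdha, a subunit of the branched-chain ketoacid dehydrogenase, had values of 10.30, 10.57 and 10.67 in transgenic arrays, below all wildtype arrays at 10.80, 10.93 and 11.10 (-0.43 ± 0.0583; limma adjusted p = 3.07e-05). Pccb of propionyl-CoA carboxylase and Gcdh, glutaryl-CoA dehydrogenase of the lysine route, each differed by -0.42 with no overlap (SE 0.0588 and 0.0572). Mccc1 of methylcrotonyl-CoA carboxylase differed by -0.38 ± 0.0879. The 1 gene that was higher, Bckdhb, encodes the partner subunit of Bckdha (0.17 ± 0.0562; limma adjusted p = 0.0419), and it lost its call after centring, at 0.12, and without any 1 of 10 arrays, at 0.14 to 0.17. It was named after its values were seen.

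Transporters and regulators moved less uniformly. Of 25 amino acid transporters 4 were lower, 16%, and 4 higher, with a median of -0.02. These counts were near the shares of all genes, 11.1% lower and 12.1% higher. Slc3a1, the heavy chain of a cystine and dibasic amino acid transporter, was 1.85-fold lower, at 7.60, 8.25 and 8.74 in transgenic arrays and 8.76, 9.01 and 9.32 in wildtype arrays (-0.88 ± 0.148; limma adjusted p = 2.60e-04). Slc3a2, the heavy chain of the large neutral amino acid transporters, differed by -0.52 ± 0.0765. Slc1a5, a glutamine and neutral amino acid carrier, was 2.11-fold higher, at 6.61, 6.86 and 6.92 in transgenic arrays and 5.39, 5.72 and 6.10 in wildtype arrays (1.08 ± 0.0987; limma adjusted p = 2.90e-07). Its relative Slc1a4 was 1.61-fold higher (0.68 ± 0.106). Both carriers lay above all wildtype arrays in every transgenic array.

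Of 16 regulators of these routes 3 were lower, 18.8%, and 1 higher. Of all genes 11.1% were lower and 12.1% higher, and 33.2% of the genes as bright as the enzymes were lower. Sirt3, a mitochondrial deacetylase, differed by -0.45 ± 0.0646 with no overlap (limma adjusted p = 5.84e-05). The liver transcription factor genes Hnf4a and Cebpa differed by -0.25 ± 0.076 and -0.20 ± 0.0569 (limma adjusted p = 0.0244 and 0.0177). After quantile normalization neither was called, at -0.22 and -0.15, and Hnf4a was also not called without transgenic array 4, 6 or 7, at -0.24 to -0.23. Ppargc1a, a coactivator induced by fasting, was 1.56-fold higher (0.64 ± 0.14; limma adjusted p = 0.00268). Over the wider lists and regulators together, 65 of 140 genes were lower, 46.4%, and 11 were higher, with a median of -0.19. Beside them stand 11.1% of all genes lower and 12.1% higher, and 33.2% and 11.7% of the genes as bright as the enzymes. Some of the 140 were dimmer than the dimmest enzyme, and no share was taken at their own brightness. The 11 became 7 after centring.

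**Figure D3:**
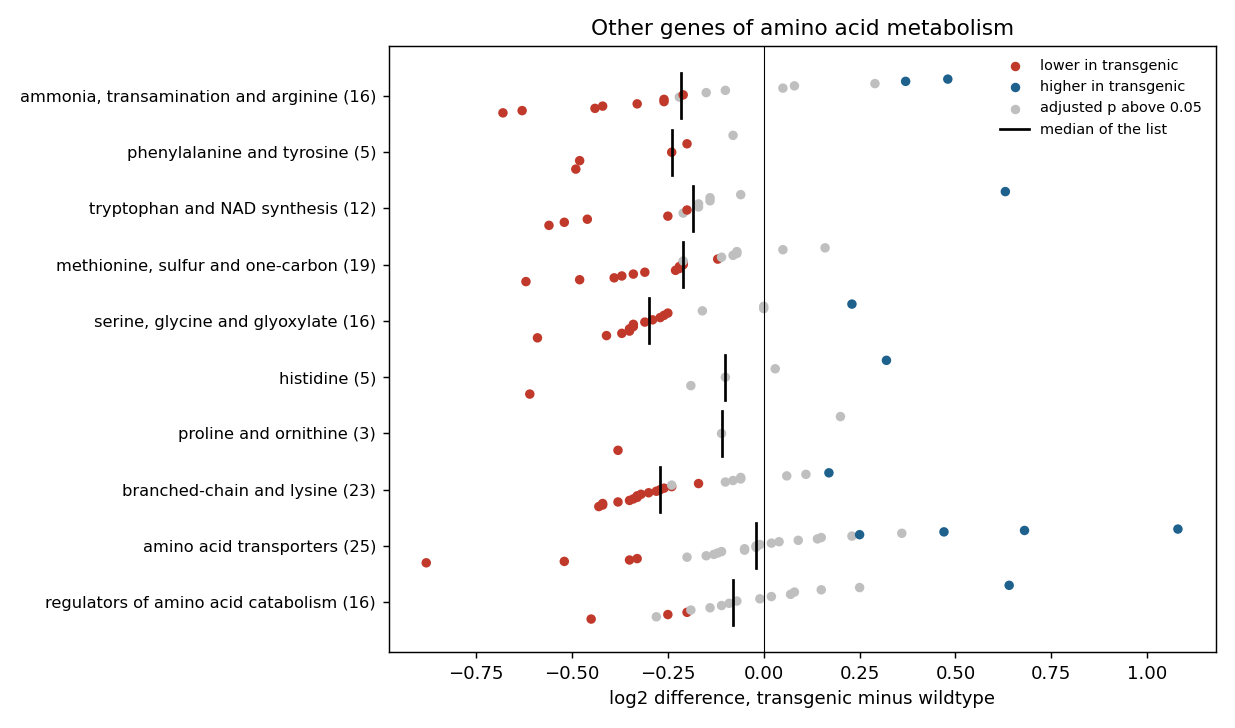
Difference between transgenic and wildtype livers for 140 other genes of amino acid metabolism in 10 lists, on the log2 scale, with 1 point per gene and the median of each list as a black bar. Most coloured points of the catabolic lists lie left of 0, and the transporters have called genes on both sides, from -0.88 for Slc3a1 to 1.08 for Slc1a5.

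The size of the decrease varied among the transgenic arrays. Over the 25 lower enzymes, transgenic arrays 1 to 7 averaged -0.46, -0.25, -0.53, -0.56, -0.28, -0.23 and -0.29 relative to the wildtype mean of each enzyme. Arrays 4, 3 and 1 were thus the lowest, and array 4 was the lowest of the 7 in 13 of the 25 enzymes. The histidine enzymes averaged -0.94 in array 4 and -0.82 in array 3, and between -0.59 and -0.37 in the other 5 arrays. The 3 enzymes of glycine and glyoxylate averaged -0.94 in arrays 3 and 4, and between -0.62 and -0.32 in the others. The SD was larger in the transgenic than in the wildtype group in 28 of 33 enzymes, with median SDs of 0.14 and 0.10. It was also larger in 96 of the 140 wider genes, with median SDs of 0.16 and 0.13. Among marker lists it was larger in 7 of 14 hepatocyte, 9 of 10 periportal and 10 of 12 pericentral markers. The share over all genes was not counted.

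**Figure D4:**
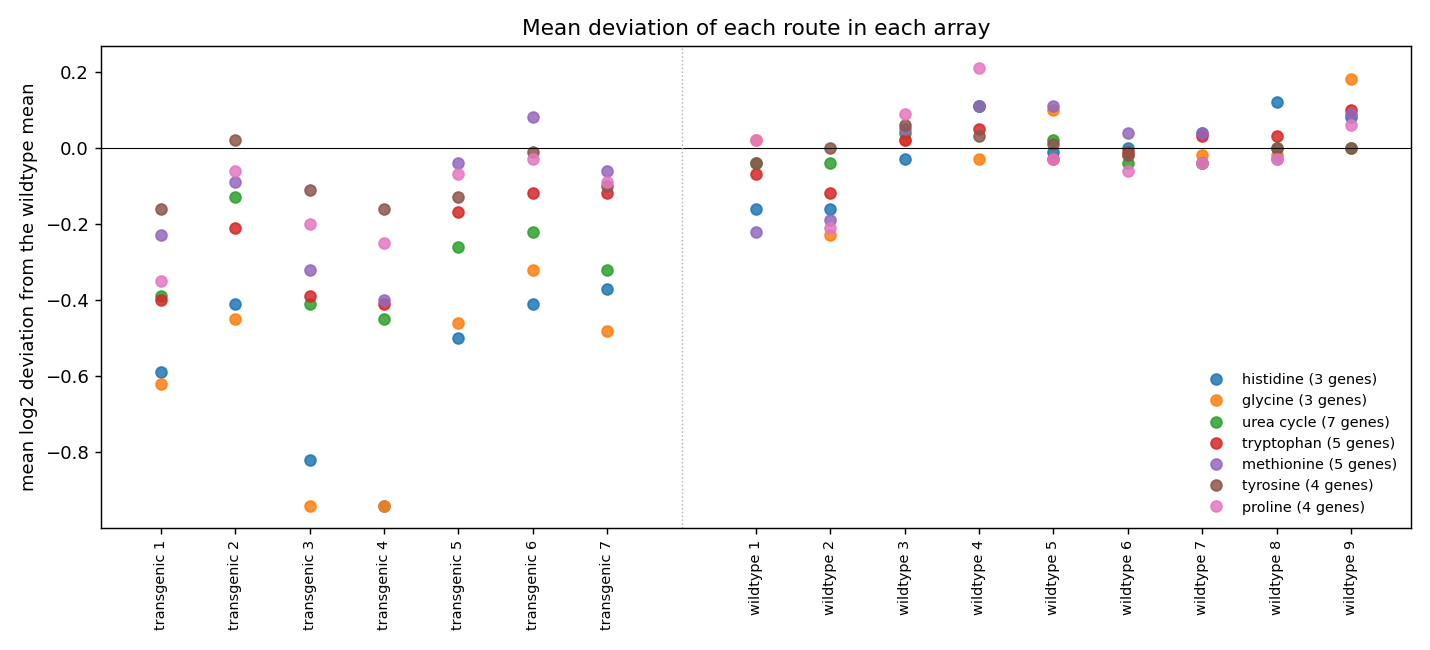
Mean deviation from the wildtype mean, on the log2 scale, of the measured enzymes of 7 routes in each of 7 transgenic arrays (left) and 9 wildtype arrays (right). Histidine and glycine points lie lowest in transgenic arrays 3 and 4 at -0.94 to -0.82, and the urea cycle lies below 0 in each transgenic array, at -0.45 to -0.13.

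The enzymes were also set out by brightness. Of the 12 enzymes with a wildtype mean of 12 or more, 7 were lower, with a median of -0.16 and a range of -0.41 to 0.07. Of the 21 with a wildtype mean under 12, 18 were lower, with a median of -0.34 and a range of -0.82 to 0.20. Saturation of bright probes was not tested.

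Markers of the hepatocyte zones moved in the same livers. Of 10 periportal hepatocyte markers 7 were lower, each with no overlap, and 1, Cdh1, was higher (0.41 ± 0.106), with a median of -0.61. Beside them, 11.1% of all genes were lower and 3.65% were lower without overlap. Of the genes at least as bright as the dimmest enzyme these shares were 33.2% and 13.5%. The marker lists were written with earlier results of these data known. The largest decreases of the periportal list were those of Hsd17b6, a steroid dehydrogenase (-1.86 ± 0.214, or 3.62-fold), and Etnppl, a phospholyase for phosphoethanolamine (-1.04 ± 0.131). The mean level of the list was 9.89 to 10.39 in transgenic arrays and 10.69 to 10.82 in wildtype arrays. Its deviation was lowest in transgenic arrays 4, 3 and 1, at -0.84, -0.75 and -0.67, the arrays in which the amino acid enzymes were also lowest. Of 12 pericentral markers 4 were higher and 1, Cyp1a2, was lower (-0.34 ± 0.0522), with a median of 0.26. The higher ones were Slc1a4, Lhpp, Gulo and Glul, and Glul and Slc1a4 also stand in the wider lists above. The mean level of the pericentral list was 9.05 to 9.47 in transgenic and 9.03 to 9.27 in wildtype arrays.

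Transgenic array 1 stood apart in the pericentral list, at -0.09, against 0.25 to 0.33 in the other 6, and it was also the array with the lowest Oat. Glul was at 11.24 in that array and at a median of 11.95 over the 7. Without it 6 pericentral markers were higher, with a median of 0.33, and Glul differed by 0.47 ± 0.051. The amino acid enzymes were then lower in 24 and higher in 1, with a median of -0.27. Array 1 was singled out by these same low values. Leaving it out therefore had to raise the pericentral mean, Glul and Oat, and gives no separate support for an increase.

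Other cell types moved as well. All 14 stellate cell and fibroblast markers were higher, with a mean level of 8.30 to 8.67 in transgenic arrays and 6.36 to 6.93 in wildtype arrays. Of 10 sinusoidal endothelial markers 8 were lower, with mean levels of 6.41 to 6.80 in transgenic and 7.56 to 7.93 in wildtype arrays. Of 9 lymphocyte markers 6 were higher, with mean levels of 5.48 to 5.83 in transgenic and 4.87 to 5.16 in wildtype arrays. Macrophage markers were higher in 5 and lower in 5 of 11, and 0 of 5 cholangiocyte markers were called. Among genes at least as bright as the dimmest enzyme, 33.2% were lower and 11.7% higher. Of the 14 hepatocyte markers 5 were lower, 35.7%, near that share, and 1 was higher, with a median of -0.04. F9 and Ambp fell most, by -0.33 ± 0.0678 and -0.17 ± 0.0236, both with no overlap. F2 and Ttr differed by -0.15 ± 0.0264 and -0.11 ± 0.0239. Alb, which was not called, differed by -0.02 ± 0.0316. The part of these shifts in the values of the amino acid enzymes was not tested.

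**Figure D5:**
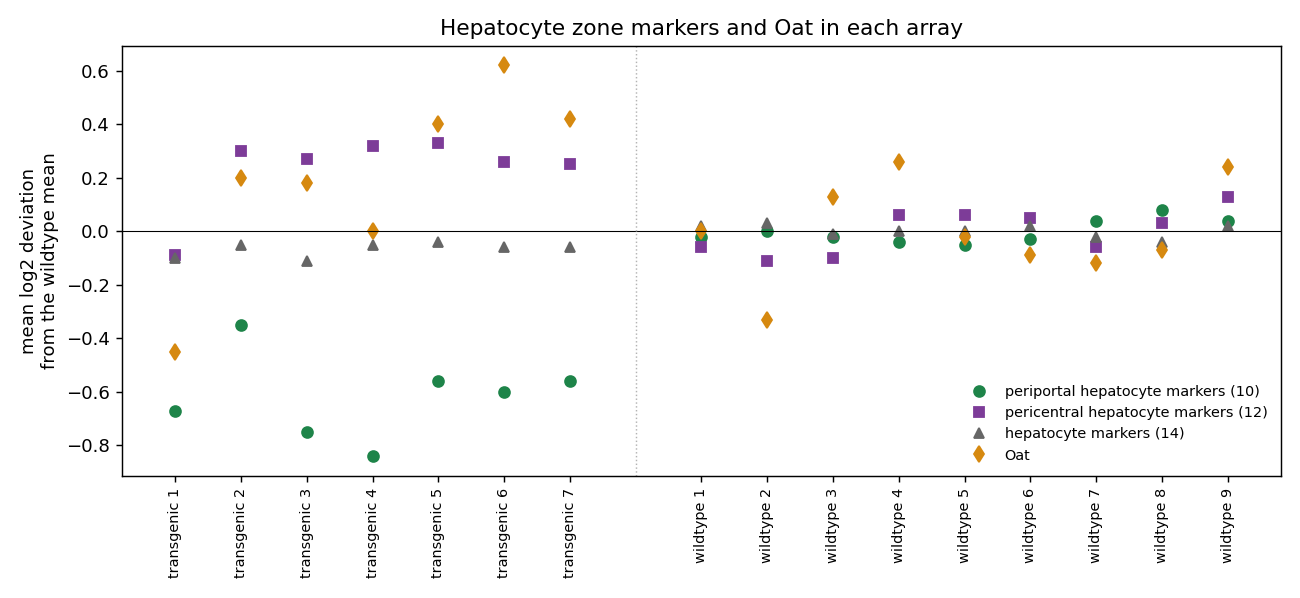
Mean deviation from the wildtype mean, on the log2 scale, of periportal, pericentral and general hepatocyte markers and of Oat in each of 7 transgenic arrays (left) and 9 wildtype arrays (right). The periportal list lies between -0.84 and -0.35 in the transgenic arrays, and the pericentral list and Oat lie below 0 in transgenic array 1.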

How the data were processed

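The deposited series table holds log2 intensities that the authors made with GCRMA, per the submitters' processing notes, a method that adjusts for background using probe sequences and puts arrays on a common scale. The version and settings are not given in the sources used here, and the log base was read from the range of 0.71 to 14.67. Array medians were 5.20 to 5.36, correlations between arrays were 0.976 to 0.991, and 0 pairs of columns were identical. Scanner files and batches were not analysed here. Of 35557 rows, 21789 had 1 symbol, 1621 several, and 12147 were unlisted. Entrez identifiers of 21698 rows matched the GRCm38.p6 gene table and 0 symbols changed.

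Groups were compared on the values as deposited, without a filter, with limma 3.58.1 in R 4.3.3 (lmFit and trended eBayes; two-sided tests with 14 residual degrees of freedom; Benjamini-Hochberg over all rows, threshold 0.05), checked on simulated data. Probes differ, so levels of different genes can be compared only roughly. Such levels were used to sort genes by brightness, to average lists and to judge that hepatocyte transcripts were abundant. The number of arrays limits the precision. Members and lists were chosen with earlier results of these data known. Named were all members, up to 4 called genes per wider or marker list by size, called regulators and Pdgfc. Dld, Hoga1, Hao1, Dmgdh, Bckdhb, Agxt2, Cdh1, Cyp1a2 and Alb were named after their values were seen. Lists were counted without a set test. Alternatives changed the scaling (quantile, or centring on array medians), the rows (above the median level, or averaged per gene), the moderation (no trend, robust, array weights), the low end (a floor at the 20th percentile) and the samples (each array left out, 1 pair left out), or added a replicate block. Plots used matplotlib 3.10.9 in Python 3.11.15.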

Additional observations from a re-analysis of the deposited data

Results flagged for a closer look

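Of 222 groups of values tested for an array far from the others of its group, 9 held one, and chance flags about 1 in 20 groups. None of the 33 measured enzymes was among them. Glul was at 11.24 in transgenic array 1 on the log2 scale, below the other 6 transgenic arrays, and so was the pericentral marker Lhpp at 9.03 in the same array. The hepatocyte marker F2, prothrombin, was at 12.28 there, above the other 6. In the transgenic group Slc25a2 was at 3.62 in array 7, below the others, and Glyctk at 9.84 in array 2, above the others. In the wildtype group the high values were those of Got1 at 11.62 in array 3, of the deacetylase gene Sirt3 at 10.35 in array 7 and of Dnase1l3, a nuclease gene of sinusoidal endothelium, at 8.18 in array 9. Nkg7, a gene of cytotoxic lymphocytes, was at 4.73 in wildtype array 8, below the others.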

How the results depend on the processing

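Of the 25 lower enzymes 20 kept their call under all 26 alternatives, and none of the 25 changed sign. Leaving out 1 array at a time gave 23 to 25 lower and 0 to 1 higher enzymes, 56 to 65 lower and 8 to 13 higher genes of the wider lists. Without transgenic array 1 there was 1 higher enzyme, Oat, and likewise without transgenic array 1 and wildtype array 9, where Oat differed by 0.33. After centring, the wider lists held 7 higher genes. Centring and quantile normalization moved the median row from -0.03 to -0.08 and -0.04. Uncalled enzymes close to 0 changed sign after centring, Cps1 to -0.02, Hgd to -0.03, Mat1a to -0.01 and Prodh to -0.01. Hgd was at -0.02 after quantile normalization, at -0.01 without transgenic replicate 6 and at up to 0.05 without other arrays, and Bhmt ranged over -0.03, without wildtype replicate 1, to 0.12. The cause was not tested. Route medians on leaving out 1 array were -0.37 to -0.31 for the urea cycle, -0.14 to -0.10 for tyrosine, -0.28 to -0.23 for tryptophan, -0.22 to -0.17 for methionine, -0.60 to -0.48 for glycine, -0.56 to -0.50 for histidine and -0.15 to -0.10 for proline.

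The groups share replicate numbers, but samples with the same number did not deviate together (correlations of -0.019 to 0.086 over 7 pairs). With the replicate block 20 enzymes and 51 wider genes were lower, and 0 and 9 were higher. Slc25a15, Cbs, Fah, Afmid and Cth were the enzymes without a call there.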
